A study of Mus musculus with 4 samples.

Results

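The genes described here are 9 axon guidance genes of the 49671 genes in the tables: the neuropilins Nrp1 and Nrp2, the plexins Plxna1, Plxna3, Plxna4 and Plxnc1, and the semaphorins Sema3a, Sema3f and Sema7a. They were chosen by name rather than by a measured value, but with earlier results of these data known. All 9 were present in all 4 tables. Class 3 semaphorins are secreted cues that steer growing axons. A neuropilin binds the cue and a class A plexin carries the signal into the cell, where it acts on the cytoskeleton. In the olfactory system of the mouse, olfactory sensory neurons (OSNs) use Nrp1 with Sema3a, and Nrp2 with Sema3f, to sort their axons on the way to the olfactory bulb. Sema7a is a membrane-anchored semaphorin whose plexin receptor is Plxnc1.

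Single-cell RNA counts were made from olfactory epithelium of the outbred mouse strain CD-1. There was 1 library for each of postnatal days 0, 3, 7 and 21 (P0 to P21), and the labels name no genetic or drug treatment. Cells were dissociated with papain and sorted before capture. The labels give neither the gate of the sort nor the number and sex of the mice. The series title places the work on neurons needed for the olfactory map in a critical period, so the ages and the maturation of OSNs are the comparisons its design implies.

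The sample titles call the cells OSNs, but other cell types were present in each library. Depth was 6861044 to 17770838 unique molecular identifiers (UMIs, 1 per captured transcript) per library, and 1413 to 3186 cells were kept, with medians of 3214 to 4958.5 UMIs per cell. Cells were grouped by marker genes after each cell was thinned to 1500 UMIs. Gap43, a growth cone protein, marks immature OSNs, and Omp (olfactory marker protein) marks mature ones. Gap43 cells had at least 2 Gap43 UMIs and under 2 Omp UMIs (675, 502, 360 and 114 cells from the youngest to the oldest library), Omp cells the converse (306, 331, 345 and 786), and both-positive cells 2 or more of each (168, 157, 72 and 85). Of the 10 marker sets for other cell types, 9 had every marker highest in their own group, and the precursor set had 3 of 4. The same markers defined these groups, so this is no independent check of cell identity. The P0 and P3 libraries shared 68 cell barcodes; without all shared barcodes no call on the 9 genes changed. Levels are UMIs of a gene per 1000000 UMIs of the summed cells of a group (CPM), with exact Poisson 95% intervals that cover counting error only. They are not corrected for gene length and are not compared between genes.

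Promoter sequences are shown for 3 of the genes that the neuron comparisons below turn on: Plxna3 and Sema7a, both higher in Omp than in Gap43 cells, and Nrp2, which differed by zone. They are the RefSeq bases before the start site in GRCm38.p6, the build of the tables, on the gene's own strand, and capitals mark a motif match.

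Plxna3, chrX:74328816-74329065, plus strand: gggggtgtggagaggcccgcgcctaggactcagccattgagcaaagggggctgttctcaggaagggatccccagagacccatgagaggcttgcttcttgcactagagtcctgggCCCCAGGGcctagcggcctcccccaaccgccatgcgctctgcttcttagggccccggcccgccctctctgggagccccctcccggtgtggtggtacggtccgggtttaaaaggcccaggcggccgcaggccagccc
Sema7a, chr9:57939862-57940111, plus strand: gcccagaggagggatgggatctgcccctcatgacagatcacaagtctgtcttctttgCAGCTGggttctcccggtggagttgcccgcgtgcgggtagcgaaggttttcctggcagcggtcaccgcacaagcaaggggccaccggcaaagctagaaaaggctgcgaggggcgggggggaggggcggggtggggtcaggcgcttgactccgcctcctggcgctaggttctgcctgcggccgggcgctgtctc
Nrp2, chr1:62703067-62703284, plus strand: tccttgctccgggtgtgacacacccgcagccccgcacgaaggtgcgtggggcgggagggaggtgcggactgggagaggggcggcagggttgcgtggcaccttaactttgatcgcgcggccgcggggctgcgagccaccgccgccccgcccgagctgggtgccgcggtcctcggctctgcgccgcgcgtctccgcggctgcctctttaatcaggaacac

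Both strands were searched for CCCNNGGG (the core of the Ebf motif), TAATTA (a homeodomain core), CAGATG or CATCTG and CAGCTG (E-boxes of helix-loop-helix factors), and the palindromic nuclear factor I motif. These motifs do not overlap one another as written. The Plxna3 window held 1 CCCNNGGG match, 136 to 129 bases before the start (positions -136 to -129), and the Sema7a window 1 CAGCTG match at -193 to -188. The 218 bases of Nrp2 held none. Of 32851 RefSeq promoters of 250 bases, 11.8% held CCCNNGGG, 4.84% TAATTA, 14.4% CAGATG or CATCTG, 13.0% CAGCTG and 0.0365% the nuclear factor I motif.

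The first comparison asks how the 9 genes differ between mature and immature OSNs. Nrp1 and Sema3a fell in Omp cells relative to Gap43 cells, while the class A plexins Plxna1, Plxna3 and Plxna4 and Sema7a rose, and Nrp2 and Sema3f did not pass the test. Of 8 genes tested, 4 were higher and 2 lower at an adjusted p under 0.05 by edgeR's quasi-likelihood test with library as a block. Plxnc1 fell below the filter on low counts. In the same fit 28.6% of 10102 genes were called higher and 28.7% lower, 57.2% in all, so a call by itself is common here. The median log2 change was 0.64 over the 8 genes and -0.02 over all genes tested. The 4 libraries are 4 ages, so the error in each test is the spread of the cell difference between ages.

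Nrp1 (chr8:128358604-128503363 in mm10, plus strand), the receptor for Sema3a, had 36.2, 56.7, 50.4 and 45.3 CPM in Omp cells in the P0, P3, P7 and P21 libraries, against 105, 118, 130 and 105 CPM in Gap43 cells. The ranges do not overlap, and every library had less in Omp cells. The level was 0.462-fold in Omp cells (log2 fold change -1.11 ± 0.114 SE, adjusted p = 8.51e-07). Both-positive cells stood between in 3 libraries, with 65.99, 85.3 and 91.8 CPM at P0, P3 and P7, and were level with Omp cells at P21 (43.2 CPM). Both-positive cells were lower than Gap43 cells (-0.61 ± 0.132, adjusted p = 0.00237), a call that was lost when cells were thinned to 1000 UMIs (-0.24, adjusted p = 0.29). Omp cells were lower than both-positive cells (-0.50 ± 0.146, adjusted p = 0.0259), but not in every setting. With gates at 3 UMIs the change was -0.21 (adjusted p = 0.61), and the call was also lost with gates at 1500 CPM (-0.41), with no library block (-0.52, adjusted p = 0.107) and without the P0, the P3 or the P7 library (-0.42, -0.47 and -0.42). In cells thinned to equal depth, 7.58% of Omp cells held an Nrp1 UMI (6.39 to 8.91%, exact binomial), against 14.5% of Gap43 cells (12.8 to 16.3%). In precursors and horizontal basal cells, which carried little Nrp1, the shares were 0.570% and 1.53%.

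Nrp2 (chr1:62703285-62818695, plus strand), the receptor for Sema3f, had 22.1, 46.1, 47.6 and 35.3 CPM in Omp cells, against 35.0, 41.4, 64.1 and 27.0 CPM in Gap43 cells. The groups overlap, and the difference was smaller than its error (-0.06 ± 0.164, adjusted p = 0.787). Both-positive cells had 34.4, 48.9, 79.4 and 68.5 CPM, a difference from Gap43 cells that did not pass (0.43 ± 0.188, adjusted p = 0.0969) but did with gates at 1500 CPM (0.81, adjusted p = 0.0169). Nrp2 differed by Nqo1 status within both groups, as described below.

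The class A plexins Plxna1, Plxna3 and Plxna4, which are signalling subunits, were each higher in Omp cells. Plxna4 (chr6:32144268-32588192, minus strand) had 77.5, 111, 128 and 85.0 CPM in Omp cells, against 18.5, 18.3, 18.3 and 18.9 CPM in Gap43 cells. No library overlapped, the Gap43 level was nearly the same at all 4 ages, and the difference was 6.04-fold (2.59 ± 0.123, adjusted p = 2.21e-10). Both-positive cells, with 49.5, 63.5, 81.9 and 45.05 CPM, were higher than Gap43 cells (1.76 ± 0.158, adjusted p = 9.69e-07) and lower than Omp cells (Omp over both-positive 0.84 ± 0.125, adjusted p = 0.000268). Plxna4 was thus a graded gene across the 3 neuron groups in every library.

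Plxna1 (chr6:89316314-89362620, minus strand) had 57.6, 67.8, 73.4 and 88.3 CPM in Omp cells, against 44.4, 34.8, 32.6 and 35.1 CPM in Gap43 cells. The groups did not overlap, and the level was 2.08-fold (1.06 ± 0.135, adjusted p = 8.67e-06). Its 3′ end is overlapped on the other strand by Gm26811, so reads of that gene could be counted here if strand was not used. Plxna3 (chrX:74329066-74344689, plus strand) had 31.7, 19.996, 37.0 and 29.0 CPM in Omp cells, against 10.3, 6.21, 5.60 and 12.1 CPM in Gap43 cells, which was 4.01-fold (2.003 ± 0.291, adjusted p = 3.12e-05), again with no overlap. Omp cells also had more Plxna1 than both-positive cells (0.66 ± 0.161, adjusted p = 0.00963), a call lost without the P3 or the P21 library (0.63 and 0.59). Both-positive cells had more Plxna3 than Gap43 cells (1.19 ± 0.355, adjusted p = 0.0186), a call lost with gates at 3 UMIs (1.13, adjusted p = 0.0695) or at 1500 CPM (1.098, adjusted p = 0.0848), with thinning to 1000 UMIs (0.78, adjusted p = 0.212), and without P3 (0.68) or P7 (1.09). Omp over both-positive cells did not pass for Plxna3 (0.82 ± 0.309, adjusted p = 0.0811), but did with no filter on low counts (0.86) and without P3 (1.36).

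Plxnc1 (chr10:94790866-94944835, minus strand), the receptor for Sema7a, was at 0 to 2.22 CPM in Omp cells and 0 to 3.29 CPM in Gap43 cells over the libraries. A count of 0 among the 3624024 UMIs of the Omp cells at P21 allows up to 0.828 CPM. With no filter on low counts the difference was smaller than its error (0.076 ± 0.847, adjusted p = 0.975), and none was detectable at this depth.

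**Figure D1:**
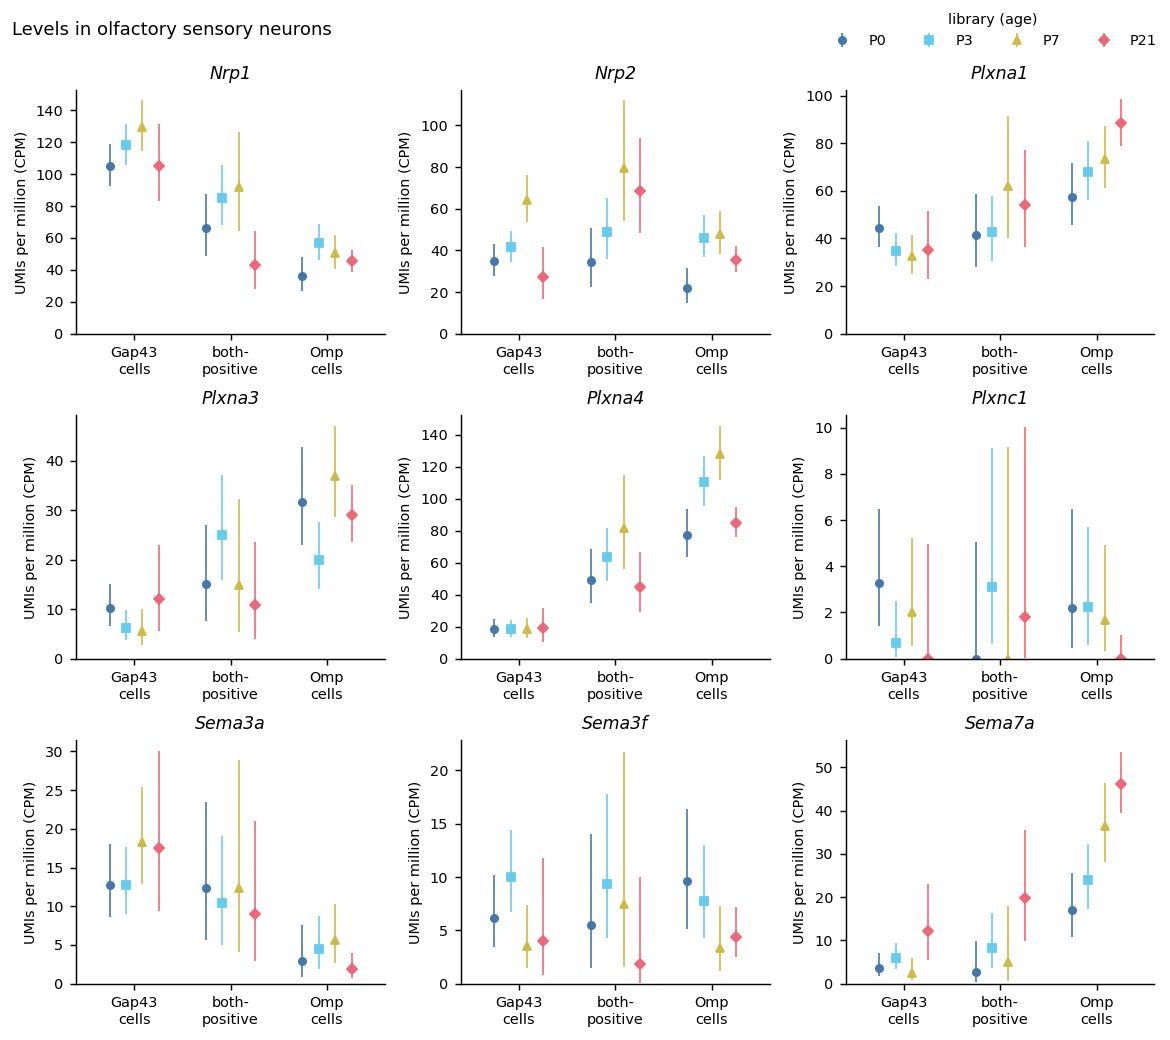
Levels of the 9 genes in Gap43, both-positive and Omp cells, in CPM. Each point is 1 library, bars are exact Poisson 95% intervals of counting error, and Plxna4 lies at 77.5 to 128 CPM in Omp cells, against 18.3 to 18.9 CPM in Gap43 cells, while Nrp1 is lower in Omp than in Gap43 cells.

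Of the ligands, Sema3a (chr5:13125414-13602565, plus strand) had 2.95, 4.44, 5.60 and 1.93 CPM in Omp cells, against 12.8, 12.8, 18.3 and 17.5 CPM in Gap43 cells. It was lower in Omp cells in all 4 libraries (-1.90 ± 0.294, adjusted p = 5.64e-05). Both-positive cells kept 12.4, 10.4, 12.4 and 9.01 CPM, and Omp cells were lower than both-positive cells (-1.57 ± 0.360, adjusted p = 0.00645). This call was lost with thinning to 1000 UMIs (-0.96, adjusted p = 0.154), with gates at 1500 CPM (-1.23, adjusted p = 0.077) and without the P0 library (-1.42). Sema7a (chr9:57940112-57962865, plus strand) moved the other way, with 16.98, 23.9, 36.4 and 46.1 CPM in Omp cells, against 3.70, 5.86, 2.54 and 12.1 CPM in Gap43 cells. This was 5.81-fold (2.54 ± 0.285, adjusted p = 2.23e-06), with a difference of 1.89 ± 0.327 (adjusted p = 0.000873) for Omp over both-positive cells and one that did not pass for both-positive over Gap43 cells (0.65 ± 0.402). Sema3f (chr9:107681500-107710475, minus strand) had 9.60, 7.78, 3.36 and 4.41 CPM in Omp cells, against 6.17, 10.0, 3.56 and 4.05 CPM in Gap43 cells, a difference smaller than its error (0.23 ± 0.336, adjusted p = 0.605).

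For the 2 steps apart, 3 of the 8 tested genes were called for both-positive over Gap43 cells (Nrp1, Plxna3 and Plxna4), where 32.4% of all genes were called, and 5 of 8 for Omp over both-positive cells (Nrp1, Plxna1, Plxna4, Sema3a and Sema7a), where 19.0% were called.

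Other genes of the pathway were counted in lists chosen by name, likewise with earlier results of these data known. Of the 17 other semaphorins 8 were tested and 4 were higher in Omp than in Gap43 cells, where 28.6% of all genes were. Sema3e, a class 3 semaphorin that binds plexin D1 directly, had 8.86, 8.89, 8.41 and 9.11 CPM in Omp cells, against 0.823, 0.690, 0 and 1.35 CPM in Gap43 cells (3.75 ± 0.489, adjusted p = 1.07e-05). Near 0 in Gap43 cells, Sema3e entered the test through the other neuron groups, so its direction was fixed beforehand. Its call, counted among the 4, is no separate support. Sema4d, Sema6a and Sema4g, which are membrane-bound, rose by 0.86, 0.84 and 0.72 on the log2 scale. Of the other plexins 2 of 5 were tested, and Plxnb2, a receptor for class 4 semaphorins, fell, with 30.3, 36.7, 35.9 and 44.7 CPM in Omp cells, against 81.9, 75.5, 68.7 and 81.0 CPM in Gap43 cells (-0.90 ± 0.116, adjusted p = 9.40e-06).

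Of 23 genes that act downstream of plexins 19 were tested, and 11 were lower and 2 higher in Omp cells, where 28.7% of all genes were lower and 28.6% higher, with a median log2 change of -0.73 against -0.02 over all genes. Dpysl3, a collapsin response mediator protein and one of the markers of the immature OSN set, had 75.3, 135, 63.3 and 30.6 CPM in Omp cells, against 1140, 1413, 1733 and 1367 CPM in Gap43 cells. Its relatives Crmp1, Dpysl5, Dpysl4 and Dpysl2 changed by -2.03, -1.92, -1.23 and -0.85. Fyn, a kinase of the Sema3a response, changed by -1.87. Mical1, an actin-oxidising enzyme that binds plexins, was at 0 to 0.555 CPM in Omp cells and 6.58 to 14.8 CPM in Gap43 cells. With so little in Omp cells, it could enter the test only through the other groups. Its direction was thus fixed beforehand, and a call on it is no separate support. Its relative Mical3 rose (1.12, adjusted p = 0.000253). Arhgef12, an exchange factor bound by class B plexins, also rose (2.05, adjusted p = 1.78e-06). Of 10 co-receptors and other receptors 2 were tested and Itgb1, an integrin subunit through which Sema7a also signals, fell (-1.47, adjusted p = 8.78e-06). Of 5 Slit and Robo genes 4 were tested and Slit2 fell (-1.54, adjusted p = 0.0145).

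The second comparison asks whether the genes differ by zone of the epithelium. Nqo1, a quinone reductase, marks OSNs of the dorsal zone. Cells with 2 or more Nqo1 UMIs after thinning (647 Omp and 213 Gap43 cells) were set against cells with none (968 and 1240). In Nqo1-positive relative to Nqo1-negative Omp cells, Acsm4, another dorsal gene, rose by 2.83 and Ncam2, a ventral gene, fell by 2.89 on the log2 scale. Among Omp cells only Nrp2 of the 7 tested genes was called, and it fell; of 8330 genes 2.48% were called there in either direction and 1.22% were called lower. Among Gap43 cells Nrp1 and Nrp2 were called, both lower, where 18.2% of the 8330 genes were called in either direction and 7.90% were called lower.

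Nrp2 had 11.6, 12.1, 12.2 and 5.80 CPM in Nqo1-positive Omp cells at P0, P3, P7 and P21, against 38.0, 77.8, 79.0 and 48.4 CPM in Nqo1-negative Omp cells. All 4 libraries differed the same way and the groups did not overlap. The level was 0.171-fold (-2.54 ± 0.229, adjusted p = 1.41e-07). Among Gap43 cells the values were 13.4, 9.35, 6.42 and 0 CPM in Nqo1-positive cells, the last from 13 cells, against 41.8, 54.4, 75.7 and 33.2 CPM in Nqo1-negative cells (-2.33 ± 0.334, adjusted p = 2.05e-05). The difference between these contrasts, Omp minus Gap43, was -0.21 ± 0.501 (adjusted p = 0.878). At equal depth 1.08% of Nqo1-positive Omp cells held an Nrp2 UMI (0.436 to 2.22%), against 9.92% of Nqo1-negative Omp cells (8.11 to 11.98%). Horizontal basal cells, which had few Nrp2 UMIs at the same thinned depth, had 0.763% (0.158 to 2.21%), so at this depth the intervals overlap. With all UMIs the shares were 4.33% in Nqo1-positive Omp cells, 21.5% in Nqo1-negative Omp cells and 0.763% in horizontal basal cells, which had 2.20 CPM of Nrp2 from 3 UMIs.

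In Omp cells Nrp1 had 24.7, 64.3, 42.1 and 38.7 CPM in Nqo1-positive cells, against 39.8, 56.5, 46.1 and 44.98 CPM in Nqo1-negative cells. The groups overlapped, and the difference did not pass (-0.11 ± 0.209, adjusted p = 0.929). In Gap43 cells it had 35.6, 23.4, 89.8 and 34.5 CPM in Nqo1-positive cells, against 119, 139, 131 and 106 CPM in Nqo1-negative cells, so each library was lower in Nqo1-positive cells (-1.64 ± 0.251, adjusted p = 4.76e-05). The 2 contrasts differed by 1.53 ± 0.337 (Omp minus Gap43, adjusted p = 0.00442), and this call was lost without the P3 library (0.98, adjusted p = 0.128). Of the 8330 genes 8.68% were called for that difference in either direction, and 2.89% were called in the direction of Nrp1.

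The Gap43 cells differ in more than zone. Omp was at 630, 613, 494 and 564 CPM in Nqo1-positive Gap43 cells, against 184, 191, 144 and 269 CPM in Nqo1-negative ones, and the precursor markers summed to 0 to 15.6 CPM, against 104 to 153 CPM. Among Gap43 cells that had exactly 1 thinned Omp UMI, a narrowing added after the data were seen, Nrp1 was at 27.5, 5.66, 118 and 38.2 CPM in 50, 27, 7 and 4 Nqo1-positive cells, against 109, 179, 178 and 176 CPM in Nqo1-negative cells (-2.32, adjusted p = 0.000301). Omp there was at 790 to 1070 CPM, against 617 to 726 CPM, so part of the gap in maturity remained.

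Sema7a had 15.99, 18.8, 21.7 and 30.0 CPM in Nqo1-positive Omp cells, against 19.0, 24.7, 49.4 and 53.0 CPM in Nqo1-negative Omp cells. It was lower in all 4 libraries but did not pass (-0.71 ± 0.271, adjusted p = 0.252). Plxna3 had 17.4, 18.8, 25.8 and 17.4 CPM, against 46.7, 20.03, 48.3 and 34.8 CPM, also lower in each library and not past the threshold (-0.84 ± 0.290, adjusted p = 0.180). With cells thinned to 1000 UMIs both passed (-1.14 and -1.23, adjusted p = 0.049 and 0.026). Plxna1 and Plxna4 differed by 0.16 ± 0.170 and 0.03 ± 0.167, and Sema3a by -0.02 ± 0.602, a wide error that rests on few UMIs.

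Sema3f was too low for the filter on low counts in these fits. It had 8.72, 12.1, 5.44 and 6.77 CPM in Nqo1-positive Omp cells, against 8.64, 4.71, 1.10 and 3.39 CPM in Nqo1-negative Omp cells. In Gap43 cells it had 11.1, 14.0, 6.42 and 11.5 CPM in Nqo1-positive cells, against 5.97, 9.63, 3.78 and 1.66 CPM in Nqo1-negative cells. The value was higher in Nqo1-positive cells in each library of both comparisons, but nearly equal in Omp cells at P0. The Nqo1-positive Gap43 groups at P7 and P21 held only 25 and 13 cells, with 155874 and 86849 UMIs of all genes. Their values thus rest on very few Sema3f UMIs. With no filter on low counts neither difference passed (1.003 ± 0.539, adjusted p = 0.722 in Omp cells, and 0.81 ± 0.599, adjusted p = 0.683 in Gap43 cells).

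**Figure D2:**
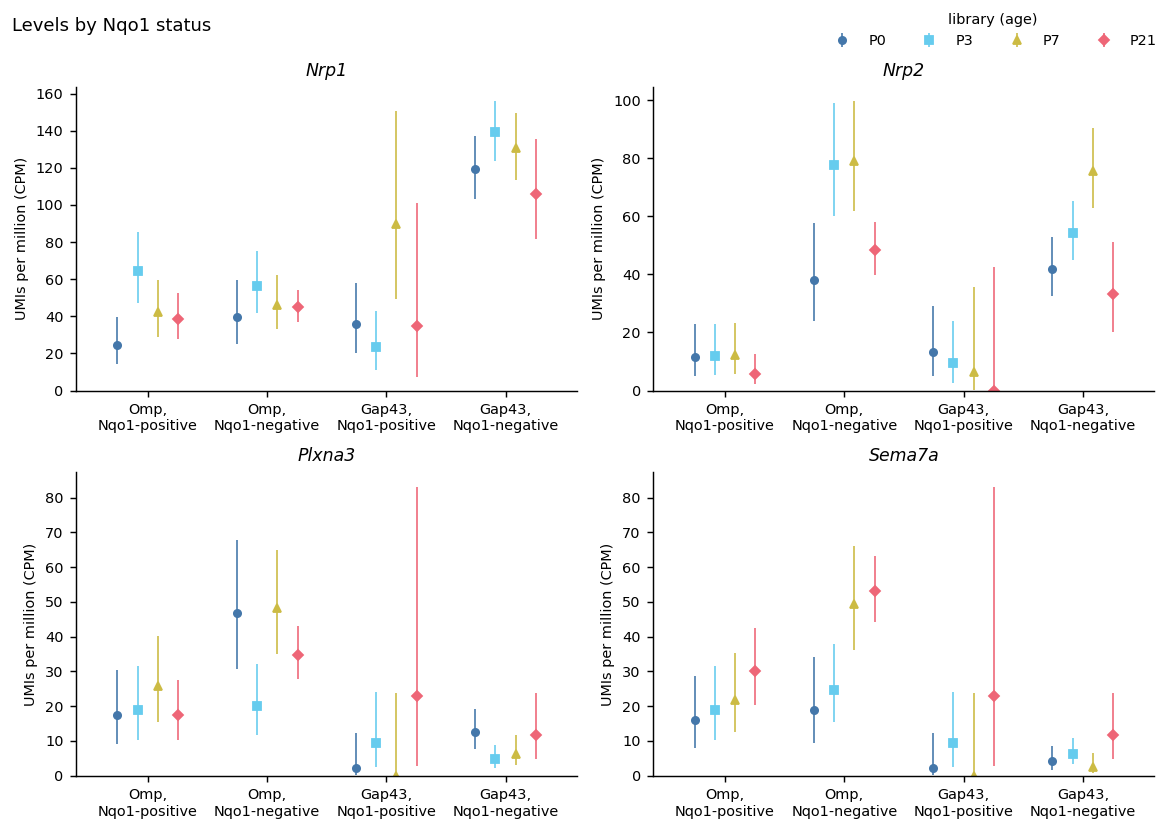
Levels of Nrp1, Nrp2, Plxna3 and Sema7a in Nqo1-positive and Nqo1-negative cells, among Omp and among Gap43 cells, in CPM. Each point is 1 library with its Poisson 95% interval, and Nrp2 lies at 0 to 13.4 CPM in all Nqo1-positive groups and at 33.2 to 79.0 CPM in all Nqo1-negative groups.

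In the other pathway lists few genes moved with Nqo1 among Omp cells, where 2.48% of all genes were called. Robo2, a receptor for Slit proteins, rose in Nqo1-positive relative to Nqo1-negative Omp cells (84.3, 88.5, 109 and 102 CPM, against 41.5, 63.6, 73.5 and 59.8 CPM; 0.71 ± 0.154, adjusted p = 0.00904). It rose likewise in Gap43 cells (0.68 ± 0.179, adjusted p = 0.00922). No other semaphorin of 5 tested, no other plexin of 2 and no downstream gene of 15 was called among Omp cells by edgeR. Among Gap43 cells 1 of the 5 other semaphorins was higher and 1 of the 2 other plexins lower. Of the 15 downstream genes 1 was higher and 4 lower there, where 18.2% of all genes were called and 7.90% were lower.

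A further comparison was added after counts of cells with both genes had been seen: cells with an Nrp1 UMI after thinning were set against cells with none. Plxna1 had 0, 41.3, 73.4 and 33.6 CPM in 16, 28, 34 and 56 Nrp1-positive Omp cells, against 60.3, 70.1, 73.4 and 92.2 CPM in Nrp1-negative Omp cells. The 0 at P0, among 61798 UMIs, allows up to 59.7 CPM. In Nrp1-positive Gap43 cells it had 20.8, 22.6, 20.5 and 7.80 CPM, against 48.2, 37.0, 34.7 and 40.8 CPM in Nrp1-negative Gap43 cells. By edgeR neither passed (-0.87, adjusted p = 0.537 in Omp cells and -0.97, adjusted p = 0.299 in Gap43 cells). None of the 5 genes tested was called in either fit, where 0.259% and 0.656% of genes were called, and 2 in Omp and 1 in Gap43 cells had an unadjusted p under 0.05. DESeq2 was not run there.

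The third comparison asks which other cells of the tissue carry the genes. Groups with 20 or more cells in at least 3 libraries were tested against the mean of the 3 neuron groups. Most receptors were lower outside neurons. The genes called higher were Nrp2 and Sema3f in stromal cells, Nrp1 in mural and stromal cells, Plxna4 in microvillar cells, Sema3f in horizontal basal cells, and Sema3a in microvillar, stromal, horizontal basal and precursor cells.

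Stromal cells, marked by collagen genes and Dcn, had 121, 228 and 395 CPM of Nrp2 at P0, P3 and P7, above every value of the neuron groups in these libraries (22.1 to 79.4 CPM). The difference was 5.29-fold (2.40 ± 0.132, adjusted p = 1.94e-11). Nrp1 was at 87.0, 111 and 153 CPM in stromal cells (0.57 ± 0.122, adjusted p = 0.000460), which was below Gap43 cells at P0 and P3 and above them at P7. Sema3a was at 34.0, 54.9 and 14.5 CPM (2.03 ± 0.329, adjusted p = 2.68e-05) and Sema3f at 22.7, 14.5 and 12.1 CPM (1.10 ± 0.366, adjusted p = 0.0126; lost without P7, 0.99). Plxna4 and Plxna1 fell there (-3.52 and -1.003), Plxna1 losing its call without P3 (-0.89), and Sema7a fell to 1 UMI, 0.0400-fold of the level in neurons (0.00101 to 0.226). In all 7 of 8 tested genes were called, where 68.5% of all genes were.

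Microvillar cells, non-neuronal cells with apical microvilli, had 165, 152 and 175 CPM of Plxna4 at P0, P3 and P21, and 201 CPM at P7 from 17 cells. These levels exceeded those of Omp cells in every library. Over the mean of the neuron groups Plxna4 rose 3.21-fold (1.68 ± 0.210, adjusted p = 5.05e-06). Sema3a was at 82.6, 48.4 and 96.2 CPM, and 121 CPM at P7, and rose 8.52-fold (3.09 ± 0.404, adjusted p = 8.50e-06). Nrp1, Nrp2 and Plxna1, in contrast, were at 9.05, 3.02 and 6.03 CPM over the 3 tested libraries, from 3, 1 and 2 UMIs, against 75.8, 38.2 and 56.7 CPM in neurons. Plxna3 and Sema7a had no UMI there, which allows up to 0.610 and 0.585 times the level in neurons (counting error only). The Plxna3 call was lost without P0 or P21 and the Sema7a call without P3 or P21. All 7 tested genes were called, where 43.0% of genes were. Nearly all of these cells, 94 of 99, led with Ascl3, Cftr or Foxi1, the ionocyte-type markers, and 5 with Trpm5 or Sh2d7. These 5 cells held no UMI of any of the 9 genes. They had only 12394 UMIs in all, so a count of 0 allows up to 298 CPM and cannot tell the 2 kinds apart. The 94 cells had 175 CPM of Plxna4 and 83.8 CPM of Sema3a. Omp and Gap43 were low in the microvillar group (-4.75 and -6.31 relative to the neuron groups). The grouping, by under 2 UMIs of each, fixed this beforehand.

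Horizontal basal cells, the reserve stem cells of the epithelium, had 15.2, 27.0, 36.5 and 44.2 CPM of Sema3f at P0, P3, P7 and P21, above all neuron groups in every library (2.32 ± 0.377, adjusted p = 1.22e-05). Sema3a was also higher (10.2, 16.2, 28.4 and 16.6 CPM; 1.16 ± 0.331, adjusted p = 0.00401). The receptors were lower: Nrp1 was at 0 to 20.3 CPM, Nrp2 at 0 to 5.08 CPM and Plxna4 at 0 to 5.52 CPM. Sema7a had no UMI, which allows up to 0.145 times the level in neurons (counting error only). All 8 tested genes were called, where 66.7% of genes were, Plxna3 only with all 4 libraries or without P21 (-1.27, adjusted p = 0.0394).

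Precursors, whose markers include Neurod1 and Neurog1, had 2.62 CPM of Nrp1 over all libraries from 8 UMIs, 0.0330-fold of the level in neurons (0.0142 to 0.0652). Plxna4 was at 1 UMI in 526 cells, 0.00551-fold of the level in neurons (0.000139 to 0.0308). Sema3a was higher than in neurons, with 21.3, 22.4, 14.4 and 8.95 CPM (1.15 ± 0.276, adjusted p = 0.00092), a call lost without the P3 library (0.90, adjusted p = 0.062). In all 7 of 8 tested genes were called, where 70.5% of genes were.

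Mural cells, which wrap vessels, had 124, 204 and 104 CPM of Nrp1 at P0, P3 and P7 (1.08 ± 0.183, adjusted p = 4.33e-05), but the call rested on the P3 library (0.45, adjusted p = 0.24 without it). Plxna4 had no UMI in mural cells, which allows up to 0.0884 times the level in neurons (counting error only). In all 5 of 8 genes were called, where 55.8% of genes were, and 2 without P3. Ensheathing glia, which wrap OSN axons, had no member higher: 6 of 8 were lower (50.1% of genes called, 29.2% lower), and Nrp1 was at 0, 32.2 and 16.1 CPM. Plxna3 and Sema7a rested on 1 and 0 UMIs in glia, and both calls were lost by DESeq2 and without the P0 library, that of Plxna3 also without P7 and that of Sema7a also without P3. Of the 14 other semaphorins tested in glia, 7 were higher and 4 lower, where 50.1% of genes were called and 29.2% were lower. Only 8 were tested in the neuron comparison. Genes near 0 in neurons, such as Sema3b and Sema3c below, entered the glia test through their glia counts. Their direction was thus fixed beforehand, and their calls are no separate support. Sema3b, a secreted class 3 semaphorin, was at 98.3, 207 and 161 CPM in glia and at 0 to 0.509 CPM in all neuron groups. Sema3c was at 73.7, 68.9 and 64.5 CPM in glia and at most 0.738 CPM in neurons, and Chl1, an adhesion molecule that can act as a neuropilin co-receptor, was at 73.7, 78.1 and 145 CPM, against at most 2.03 CPM. The median log2 change of all genes was -0.30 in glia, -0.44 in leukocytes, -0.22 in microvillar cells and -0.15 in mural cells. The cause of this shift was not tested, and the changes given for these groups include it.

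Leukocytes had 171, 61.3 and 171 CPM of Nrp1, a difference that did not pass (0.57 ± 0.266, adjusted p = 0.0819) but did with DESeq2 (0.66, adjusted p = 0.040), with a minimum of 5 marker UMIs (0.68, adjusted p = 0.0394) and without P3 (1.14, adjusted p = 0.0052). Plxnc1 was at 0, 21.9, 24.4 and 14.2 CPM at P0, P3, P7 and P21, the last from 19 cells. Over P0, P3 and P7 it rested on 7 UMIs, 9.62 times the level of neurons (3.54 to 22.6, counting error only). It was not tested by edgeR because of its low counts. In all 4 of 8 genes were called, all lower, where 50.3% of genes were (30.8% lower), and 2 were called without P3 or without P7. The calls of Nrp2 (-1.04, adjusted p = 0.101) and Sema3a (-2.39, adjusted p = 0.094) were lost by DESeq2. Both were also lost when the P0, the P3 or the P7 library was left out. Sema3a had no UMI in leukocytes. The Nrp2 call was lost with a minimum of 5 marker UMIs as well, and that of Plxna1 without P3. Endothelial cells were too few to test. Over all libraries their 47 cells had 447 CPM of Nrp2 (72 UMIs, 10.5 times neurons, 8.13 to 13.4), 161 CPM of Nrp1 (2.03 times, 1.32 to 2.99) and 68.2 CPM of Sema7a (3.64 times, 1.80 to 6.59).

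**Figure D3:**
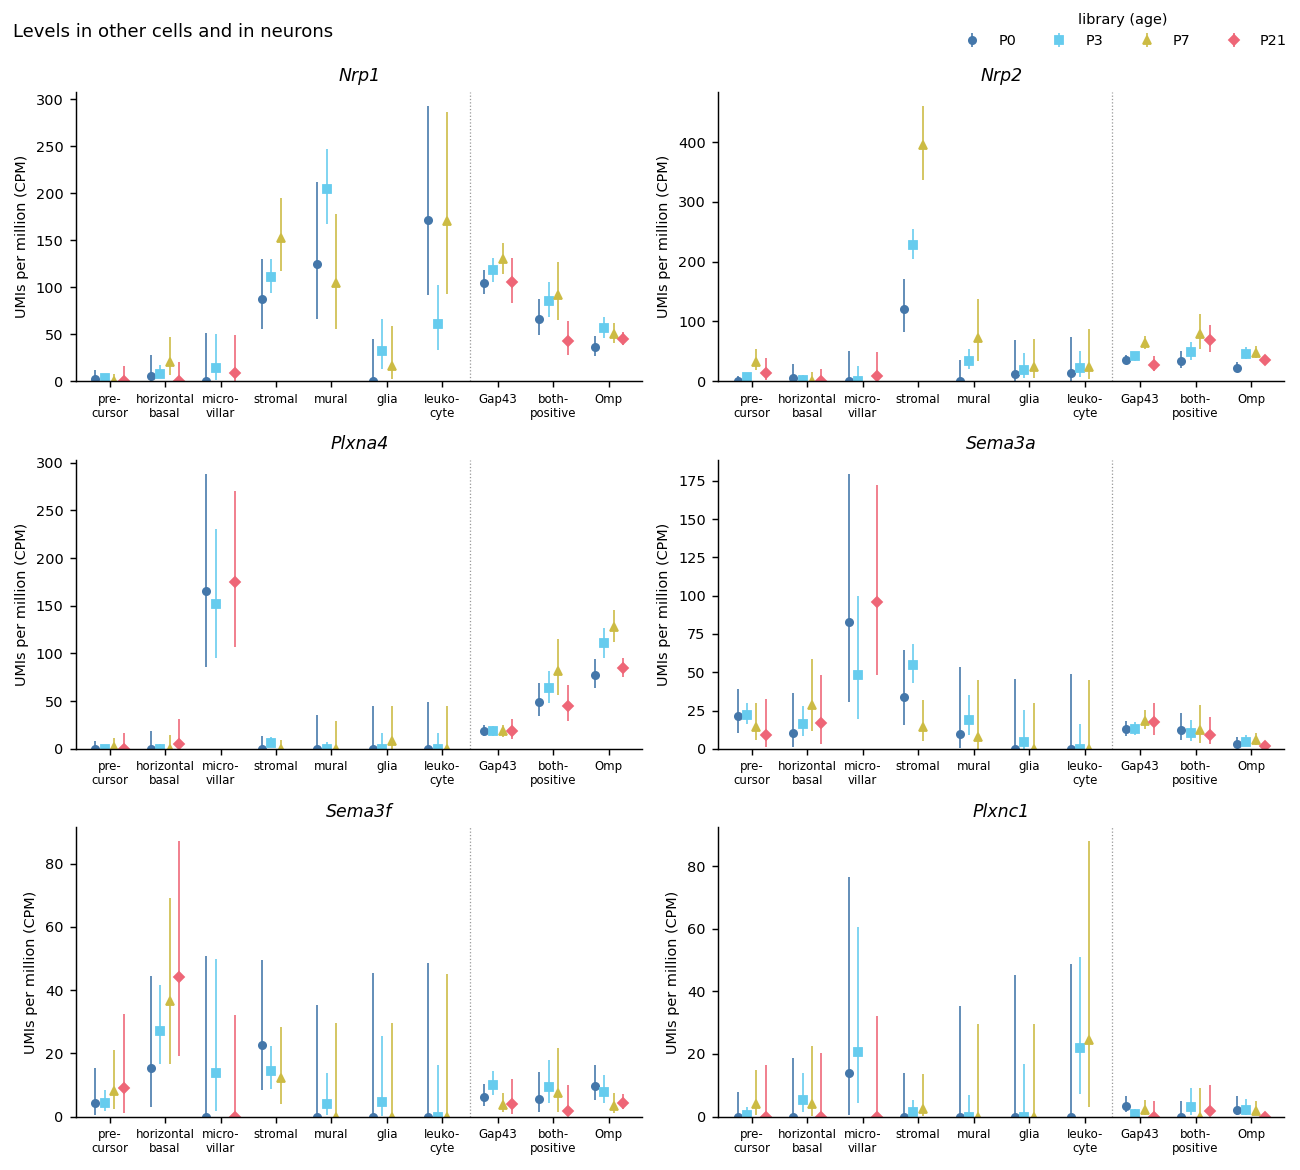
Levels of 6 of the genes in 7 other cell groups and, right of the dotted line, in the 3 neuron groups, in CPM. Points are libraries with 20 or more cells of the group and bars are Poisson 95% intervals; Nrp2 peaks in stromal cells at 121 to 395 CPM, Plxna4 and Sema3a in microvillar cells, and Sema3f in horizontal basal cells.

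The fourth comparison concerns age. With 1 library per age there is no test, age and library cannot be told apart, and a gene was counted when P21 over P0 was at least 1.5-fold with an interval that leaves out 1 and with 20 UMIs in either library. In Omp cells 3 genes passed, all higher, where 14.4% of genes passed higher and 8.12% lower. Sema7a was 2.71-fold at P21 over P0 (1.75 to 4.40), with 16.98, 23.9, 36.4 and 46.1 CPM in age order, so it climbed at each step. Plxna1 climbed at each step as well, 57.6, 67.8, 73.4 and 88.3 CPM, 1.53-fold at P21 over P0 (1.19 to 1.99). Nrp2 was 1.60-fold (1.07 to 2.46), but the low value was P0 alone, since P21 was 0.766 times P3 (0.577 to 1.02) and 0.741 times P7 (0.559 to 0.987). With gates at 3 UMIs only Sema7a of the 3 still passed. Against P7 in place of P0 none of the 3 passed, and the P21 level of Sema7a was 1.26 times that at P7.

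Plxna4 in Omp cells peaked at P7, and its P21 level was 0.665 times that at P7 (0.559 to 0.793) and 1.10 times that at P0 (0.876 to 1.38). Nrp1 in Omp cells was 1.25 times at P21 over P0 (0.904 to 1.76), within counting error. In Gap43 cells no gene passed (7.39% of genes passed higher and 6.34% lower), and Nrp1 and Plxna4 were at 1.003 times (0.768 to 1.30) and 1.02 times (0.517 to 1.89). Sema7a had under 20 UMIs in each of these libraries outside Omp cells and was not counted. In Gap43 cells it was at 12.1 CPM at P21 and 3.70 CPM at P0, 3.28-fold from 9 UMIs each (1.15 to 9.33), and in both-positive cells at 19.8 and 2.75 CPM, 7.21-fold from 11 and 2 UMIs (1.57 to 66.9). In both-positive cells Nrp2 alone passed, 1.99-fold (1.17 to 3.44), where 9.03% of genes passed higher and 6.68% lower. That ratio was 5.65 with gates at 3 UMIs, 1.40 against P3 and 0.863 against P7. Omp itself in Omp cells was at 3673, 4009, 4928 and 6500 CPM in age order, so Omp cells of later libraries carried more of it; its part in the Sema7a and Plxna1 values was not tested.

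**Figure D4:**
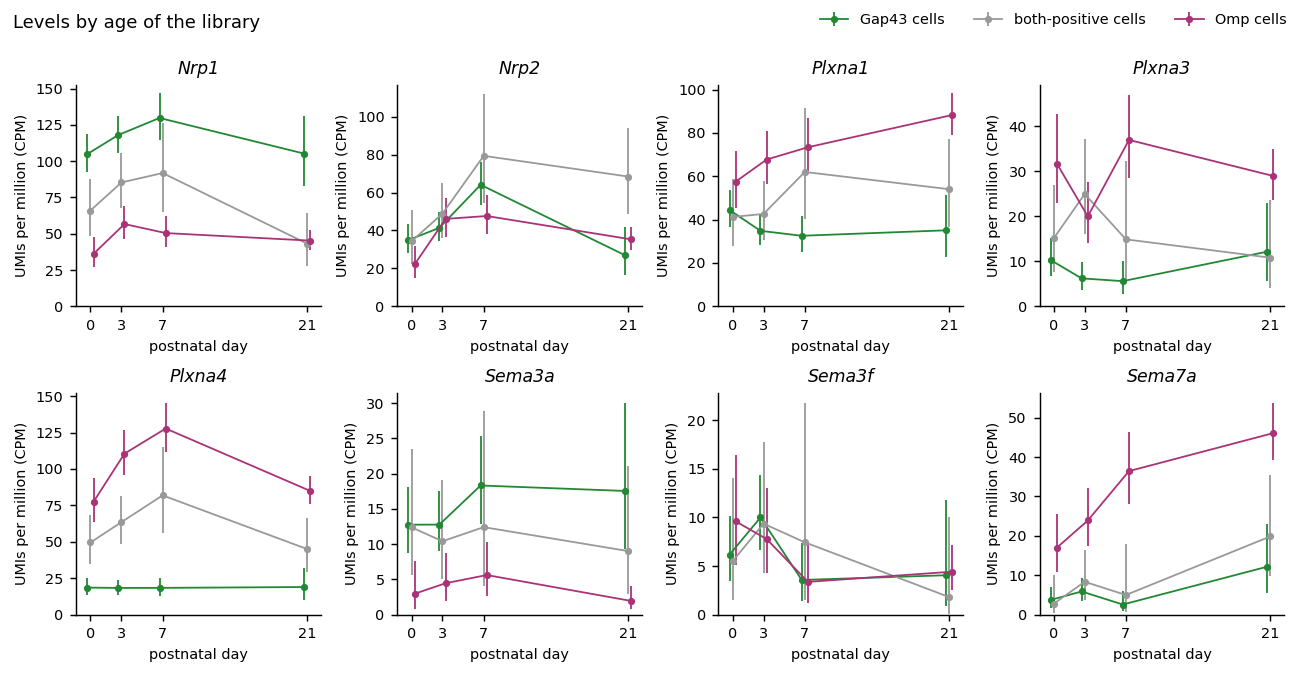
Levels by postnatal day of the library in Gap43, both-positive and Omp cells, in CPM, without Plxnc1. Bars are Poisson 95% intervals and lines join single libraries; Sema7a and Plxna1 climb in Omp cells at each step, while Plxna4 is highest at P7 (128 CPM).

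The genes whose levels followed each of the 9 most closely over 38 sums of 20 or more cells, by Pearson's r of log2(CPM + 10) among 9279 genes, are given as a description without a test; the sums share libraries and marker groups. Plxna4 was nearest to Syn2 (r = 0.904), a synapsin of synaptic vesicles, and then to Pak7 and Ppargc1a. Plxna3 was nearest to Fam179a (r = 0.864), and the next were Ano2, the chloride channel of olfactory cilia, and Kirrel2, an adhesion molecule of OSN axons. Sema7a was nearest to Efr3b (r = 0.840) and Plxna1 to Dzip1l (r = 0.870). The neuropilins were less closely matched, Nrp1 by St6galnac4 (r = 0.753) and Nrp2 by Apbb2 (r = 0.767). Among the 9 genes the highest value was 0.72, between Plxna1 and Plxna3, and that between Nrp1 and Nrp2 was 0.65.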

How the data were processed

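The authors deposited 1 table of UMI counts per library (gene by cell, not normalized). Droplet libraries were made with 10x 3′ v2 chemistry per the labels' protocols. Cell Ranger 2.1.1, Seurat and the mm10 build are named in the submitters' processing notes, which give no roles; whether counting used strand is not given in the sources used here. Cells with under 500 genes or over 10% mitochondrial or haemoglobin UMIs were left out (0 to 12 per library). Scrublet, run in scanpy 1.11.5, marked 0 to 34 cells per library, which were left out; so few marked cells mean that doublets may remain. Cells under 1500 UMIs (30 to 291 per library) were not grouped. Cells were grouped after thinning to 1500 UMIs, but levels use all UMIs. Other cell groups needed under 2 Gap43 and under 2 Omp UMIs. They also needed 3 or more UMIs from at least 2 markers of a set, and at least 2 times any other set. Neurons that also met such a set were left out, but those that met only the precursor set were kept. UMIs were summed per library and group, and tested with edgeR 4.0.16 in R 4.3.3 (quasi-likelihood, TMM scaling, filterByExpr, library as a block, Benjamini-Hochberg adjustment over all genes). All adjusted p-values come from that test unless DESeq2 (1.42.0) is named. The libraries are different ages, nothing says how many animals each holds, and p-values measure only the spread between them. Age ratios have exact conditional intervals (scipy 1.17.1). The tests were tested on simulated data. Named genes are the 9 genes, the genes of 5 pathway lists called in a comparison, and the 3 nearest genes by correlation. Members and lists were chosen with earlier results of these data known. Alternatives were other scalings, gates, thinning depths, filters, no block and each library left out. RefSeq promoters matched 4 of the 9 genes.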

Additional observations from a re-analysis of the deposited data

Results flagged for a closer look

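For 3 genes the Nqo1 contrast (Nqo1-positive over Nqo1-negative) differed between Omp and Gap43 cells by edgeR's test of the difference itself, among 33 genes of the 9 and of the 5 pathway lists tested there; over all genes 8.68% were called. Nrp1, described above, had a difference of 1.53 on the log2 scale (Omp minus Gap43), past the threshold in each setting except without the P3 library (0.98, adjusted p = 0.128) and with no library block (1.49, adjusted p = 0.0501).

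Itgb1, an integrin subunit that binds Sema7a, had a difference of 1.66 (adjusted p = 0.0124). It had 14.5, 18.8, 13.6 and 21.3 CPM in Nqo1-positive Omp cells, against 5.19, 10.6, 15.4 and 8.06 CPM in Nqo1-negative Omp cells. In Gap43 cells it had 24.5, 16.4, 32.1 and 46.1 CPM in Nqo1-positive cells, against 43.6, 45.2, 39.1 and 48.1 CPM in Nqo1-negative cells. The call was lost without P0 (1.57), P3 (1.38) or P21 (1.42), and among Omp cells with 2 to 6 Omp UMIs (1.35, adjusted p = 0.0896).

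Crmp1, a collapsin response mediator protein, had a difference of 0.73 (adjusted p = 0.0415), lost with DESeq2 (adjusted p = 0.0739), with no library block, without P0, P3 or P21, and without shared barcodes (adjusted p = 0.0553). It had 131, 180, 122 and 138 CPM in Nqo1-positive Gap43 cells, against 178, 208, 190 and 211 CPM in Nqo1-negative Gap43 cells. The Omp level within Gap43 cells, given above, also differed by Nqo1 status. With only Gap43 cells that had 1 thinned Omp UMI, the difference was 2.23 for Nrp1 (adjusted p = 0.0171), 2.43 for Itgb1 (adjusted p = 0.179) and 0.33 for Crmp1 (adjusted p = 0.812).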

How the results depend on the processing

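No gene of the 9 that passed a test changed sign under any alternative run; values that did not pass could, such as Plxna4 in the Nqo1 contrast of Gap43 cells (-0.09 in cells with 1 Omp UMI, 0.87 as reported). Age ratios depended on the early library. The P21 ratio of Nrp2, above 1 against P0, was 0.766 against P3 and 0.741 against P7 in Omp cells, and 0.863 against P7 in both-positive cells. In Omp cells that of Nrp1 was 0.799 against P3 and 0.897 against P7, that of Plxna3 1.45 against P3, and that of Plxna4 0.769 against P3 and 0.665 against P7 (1.25, 0.913 and 1.10 against P0). The ratio of Sema7a in Omp cells was 1.26 against P7 (2.71 against P0). Of 260 recomputed counts 222 stayed within 1.5 times, and of 1159 recomputed values of single genes 1088 stayed on their side of the threshold or within error, 48 lost a call and 12 gained one. The cause of each change below was not tested. The count of the 9 genes called became 1 for both-positive over Gap43 cells with thinning to 1000 UMIs, 3 for Omp over both-positive cells with gates at 1500 CPM (3 to 4 with 1 library left out), 3 for the Nqo1 contrast in Omp cells with thinning to 1000 UMIs, and 0 for the difference of the Nqo1 contrasts with no block (0 to 2 with 1 library left out). With 1 library left out it was 2 to 4 for the Nqo1 contrast in Gap43 cells, 2 to 5 for mural cells and 2 to 3 for leukocytes. For age, 1 gene passed in Omp cells with gates at 3 UMIs or against P3. Against P7, 1 passed in Omp cells, Plxna4, and it was lower, while Sema7a and Plxna1 did not pass. In Gap43 cells 1 passed against P7, Nrp2, also lower (0.421), and in both-positive cells 2 passed against P7. Of all genes, both-positive over Gap43 cells had 1978 calls with gates at 3 UMIs (3278 as reported), and Omp over both-positive cells 899 with no block and 1139 with gates at 3 UMIs (1923). The Nqo1 contrast in Omp cells had 755 with no filter on low counts, 130 with DESeq2, 61 with no block, 95 in cells with 2 to 6 Omp UMIs and 124 to 145 with 1 library left out (207). That in Gap43 cells had 771 with no block, 160 in cells with 1 Omp UMI and 787 to 1557 with 1 library left out (1514). Their difference had 196 with no block, 15 in Gap43 cells with 1 Omp UMI and 317 to 721 with 1 library left out (723). Nrp1-positive over Nrp1-negative Gap43 cells had 29 among Nqo1-negative cells and 17 to 41 with 1 library left out (48). The narrowed groups, the Nrp1 groups and the removal of shared barcodes were chosen after seeing the data. Plxnc1 was tested only with no filter on low counts. Groups of cells from the same library were paired throughout, by the library block.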

Other observations

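Cells that held UMIs of 2 of the genes at once were counted, with no test. For Nrp1 and Plxna1 the count was below the product of the shares in all 4 libraries of Omp cells and of Gap43 cells. In Omp cells 54 held a UMI of both, against 90.4 from the product of the shares within each library, and in Gap43 cells 46, against 76.8. For Nrp1 and Nrp2 the counts were 44 against 46.8 in Omp cells and 70 against 67.2 in Gap43 cells. For Nrp1 and Sema3a the count was below the product in all 4 libraries of Gap43 cells, 20 against 35.5, and in Omp cells it was 6 against 5.41. For Nrp2 and Plxna3 the counts were 41 against 33.1 in Omp cells and 11 against 7.92 in Gap43 cells. For Plxna1 and Plxna4 in Omp cells they were 191 against 177, and in Gap43 cells 23 against 19.5. Nrp1 and Plxna1 are known to be complementary among OSN axons of the mouse.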
